A study of Mus musculus with 8 samples.

Results

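The genes described here encode effector proteins that activated CD8+ T cells secrete or, for Ltb, hold at the membrane. They are the cytokine genes Ifng, Tnf, Il2, Lta, Ltb and Csf2 and the chemokine genes Ccl3, Ccl4, Ccl5 and Xcl1. They were taken by gene symbol, and the rule used no measured value, but the list was chosen with earlier results of these data known. All 10 symbols were found among the 31815 genes of the table, each in 1 row.

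The cells were naive CD8+ T cells from the spleens of OTI mice (C57BL/6-Tg(TcraTcrb)1100Mjb/J), whose transgenic T cell receptor recognises a peptide of ovalbumin (OVA). They received OVA peptide for 3 days, were transduced 24 hours into the culture with a vector for TOXFL or for TOXdeltaN, each followed by IRES-GFP, and were sorted by flow cytometry on day 5. The 4 groups were the GFP-negative cells and the top 20% of GFP-positive cells of the TOXFL culture, and the same populations of the TOXdeltaN culture, with 2 RNA-seq libraries each. TOX is a DNA-binding nuclear protein that T cells make after prolonged antigen receptor signalling. All groups carry the same transgenic receptor and had the same peptide, and the animals' age is not given in the sources used here. Cells with a GFP vector that lacks TOX were not analysed here, so the TOX protein, the vector and the sort on GFP cannot be told apart in a comparison of GFP-positive with GFP-negative cells. Nothing in the labels says whether replicates came from separate mice or cultures, so the p-values describe only how far these libraries scatter, which may be technical variation.

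A CD8+ T cell that meets its antigen can release such proteins within hours. Interferon gamma and tumour necrosis factor act on infected or tumour cells and macrophages, IL-2 and GM-CSF (encoded by Csf2) act on lymphocytes and myeloid cells, and the lymphotoxins shape lymphoid tissue. CCL3, CCL4 and CCL5 draw in T cells and myeloid cells, and XCL1 draws in dendritic cells with the receptor XCR1. The messages are made on calcium and NF-kB signals, and many are short-lived because AU-rich elements in their 3' untranslated regions (3' UTRs) bind decay factors.

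The genes lie partly in clusters. On chromosome 17 of GRCm38, Ltb (35194439 to 35196320), Tnf (35199381 to 35202007) and Lta (35203165 to 35205351) stand side by side, 3060 and 1157 bases apart with no coding gene between them. On chromosome 11, Ccl3 (83647844 to 83649355) and Ccl4 (83662584 to 83664683) are neighbours 13228 bases apart. Ccl5 (83525778 to 83530518) lies 117325 bases from Ccl3 with 3 coding genes between. Csf2 (54247271 to 54249667) is on chromosome 11 as well, far from the chemokines. Ifng is on chromosome 10 (118441046 to 118445892), Il2 on chromosome 3 (37120523 to 37125959) and Xcl1 on chromosome 1 (164931644 to 164935527). The counts were not made by strand, as far as the labels say. Reads of Il2 and its opposite-strand neighbour Adad1, of Csf2 and the antisense gene Gm12223, and of Xcl1 and Gm20743 could therefore not be told apart where these overlap.

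The AU-rich sequence distinguishes members from each other. The nonamer TTATTTATT, searched on the transcript strand of the longest annotated 3' UTR in GENCODE M21, was found in Tnf, Il2, Lta and Csf2, which is 4 of 10 members. It occurred in 7.99% of the 11667 tested genes with a 3' UTR. The 3' UTRs of members are short, with a median of 363 bases against 1153. Among the 4274 genes whose 3' UTR is no longer than the longest of a member, 2.53% had the nonamer. The 30-base windows with the most matches are shown 5' to 3' in DNA letters, with the nonamer in capitals; all 4 genes are read from the minus strand of GRCm38.
Tnf chr17:35199681-35199710: ttaTTATTTATTATTTATTTATTATTTATT
Csf2 chr11:54247327-54247356: tttaaatatTTATTTATTTATTTATTTATT
Il2 chr3:37120898-37120927: tttatctgaaaTTATTTATTatattgaatt
Lta chr17:35203396-35203425: gaaaagttaagTTATTTATTtatagagaat
The windows of Tnf and Csf2 each hold 4 overlapping nonamers, and those of Il2 and Lta hold 1. Over the whole 3' UTR, Tnf had 5 nonamers and Csf2 had 4. The shorter pentamer ATTTA, which every nonamer contains, was present in 8 of 10 members against 69.1% of genes, or 38.3% of those 4274. Csf2 had 9 pentamers in 317 bases, Tnf 8 in 764, Il2 7 in 581, Ifng 6 in 631 and Ccl3 5 in 409. Lta had 3, Ccl4 2 and Xcl1 1. Ltb and Ccl5 had none in 174 and 199 bases. At least 5 pentamers were found in 5 members and in 22.1% of genes, or 1.03% of the 4274 genes whose 3' UTR is no longer than the longest of a member. A match describes letters and not a working element.

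Promoters are shown for the genes that were called higher in GFP-positive cells in at least 1 fit to all 8 libraries below, Ccl3, Xcl1 and Lta. They run from 250 bases before to 50 bases after the start site and come from RefSeq (GRCm38.p6), which held 8 of the 10 members (Ccl4 and Ccl5 were not in the table). All 3 are on the minus strand. Capitals mark matches to the motifs searched on both strands.
Ccl3 chr11:83649329-83649628: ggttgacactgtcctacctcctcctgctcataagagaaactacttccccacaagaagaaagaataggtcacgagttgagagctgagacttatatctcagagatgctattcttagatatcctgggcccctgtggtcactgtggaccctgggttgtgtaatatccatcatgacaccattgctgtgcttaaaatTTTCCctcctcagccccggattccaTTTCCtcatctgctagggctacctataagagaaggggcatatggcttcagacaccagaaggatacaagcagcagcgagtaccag
Xcl1 chr1:164935473-164935772: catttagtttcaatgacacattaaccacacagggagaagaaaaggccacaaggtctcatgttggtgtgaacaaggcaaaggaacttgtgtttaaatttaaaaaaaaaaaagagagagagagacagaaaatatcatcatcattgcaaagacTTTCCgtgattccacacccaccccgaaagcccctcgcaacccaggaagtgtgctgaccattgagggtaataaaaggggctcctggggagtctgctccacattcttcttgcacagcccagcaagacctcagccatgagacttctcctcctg
Lta chr17:35205302-35205601: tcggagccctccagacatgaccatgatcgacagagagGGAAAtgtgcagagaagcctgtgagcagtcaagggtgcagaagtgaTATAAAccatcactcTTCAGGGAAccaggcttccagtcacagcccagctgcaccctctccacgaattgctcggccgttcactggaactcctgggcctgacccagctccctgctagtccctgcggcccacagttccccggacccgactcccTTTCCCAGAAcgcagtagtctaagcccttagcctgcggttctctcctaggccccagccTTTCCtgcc
The capitals in Ccl3 are NFAT cores (GGAAA, here on the opposite strand) at positions -59 and -34 from the start site, and in Xcl1 1 such core at -100. Lta had 3 NFAT cores, at -213, -17 and 42, STAT matches (TTCNNNGAA) at -152 and -16, of which the latter overlaps an NFAT core, and TATAAA at -167. The NFAT core was in all 8 promoters, but also in 61.3% of the 32851 promoters in the table. The NF-kB motif (GGGA and CC with 4 bases between) was in 3 of 8 (Tnf, Ltb and Csf2; 20.7% of all promoters) and overlapped the NFAT core in Ltb and Csf2. The STAT motif was in 3 (Ifng, Lta and Ltb; 8.3%) and TATAAA in 4 (Ifng, Tnf, Il2 and Lta; 13.6%). AP-1 (TGANTCA), CRE (TGACGTCA) and T-box (AGGTGTGA) letters were in none of these 8 windows, and in 7.81%, 1.79% and 1.28% of all promoters. The Csf2 window (54249850 to 54250149) lies wholly upstream of the Csf2 start in GENCODE M21, at 54249667 on the minus strand. The stretch just before that start was therefore not searched, and the Csf2 results hold for the RefSeq window only.

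The libraries held 25059112 to 31240067 counts over 16577 to 16943 genes, and the members took 0.1115% to 0.1382% of them. Tox, the check of the labels, stood at 25.05 and 34.37 CPM (counts per 1000000 counts, after scaling) in TOXFL GFP-negative replicates 1 and 2 and at 104.8 and 126.3 in TOXFL GFP-positive cells. It stood at 21.8 and 32.16 CPM in TOXdeltaN GFP-negative cells and at 107.2 and 82.9 in TOXdeltaN GFP-positive cells, so Tox followed the labelled GFP status in all 8 libraries. Counts per gene do not tell TOXFL from TOXdeltaN, and the construct labels were not checked. The 7 markers of CD8+ T cells summed to 4401 to 4907 CPM. The 4 markers of CD4+ T cells summed to 2.115 to 5.544 CPM. Of these, Cd4 was at most 1.23 CPM, Foxp3 3.148, Zbtb7b 1.946 and Cd40lg 0.5996. The B cell markers summed to 13.99 to 17.49 CPM, nearly all from Cd79b, with the other 4 under 1 CPM, and the NK and gamma-delta markers to 3.398 to 8.537 CPM, mostly Eomes. Because the samples are bulk RNA, fewer producing cells and less message per cell cannot be told apart.

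Measured per kilobase of exon, the members spanned more than 3 orders of magnitude in level. Ltb, the membrane-bound partner of lymphotoxin alpha, was highest, with a mean of 547.7 CPM per kilobase over the 8 libraries (472.5 to 611.9). Xcl1 followed with 461 (298.2 to 726.9). Their ranges overlapped, and Ltb was the higher of the pair in 6 of 8 libraries. Together Ltb and Xcl1 held most of the members' counts, 68.13% and 19.62% on average. Ccl4 came next with 88.81 CPM per kilobase (72.83 to 117.1), apart from both neighbours in every library. Ccl3 had 26.99 (19.13 to 35.43) and Ccl5 had 26.41 (15.17 to 34.57), each the higher in 4 libraries, so their order was not settled. Lta had 16.77 (13.24 to 21.19), below Ccl5 in 7 libraries with overlapping ranges. Tnf had 8.358 (7.324 to 9.394), below Lta without overlap. Csf2 had 4.428 (2.283 to 7.495), Ifng 3.623 (2.475 to 5.649), and Il2 0.3761 (0.1496 to 0.5849) with only 5 to 19 counts a library. Tnf exceeded Csf2 in all 8 libraries although their ranges touched. Csf2 exceeded Ifng in 6 of 8 libraries, and Ifng exceeded Il2 in all 8 without overlap. Il2 thus had the lowest level per kilobase of the 10, and Ifng and Csf2 stood next above it with overlapping ranges.

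**Figure D1:**
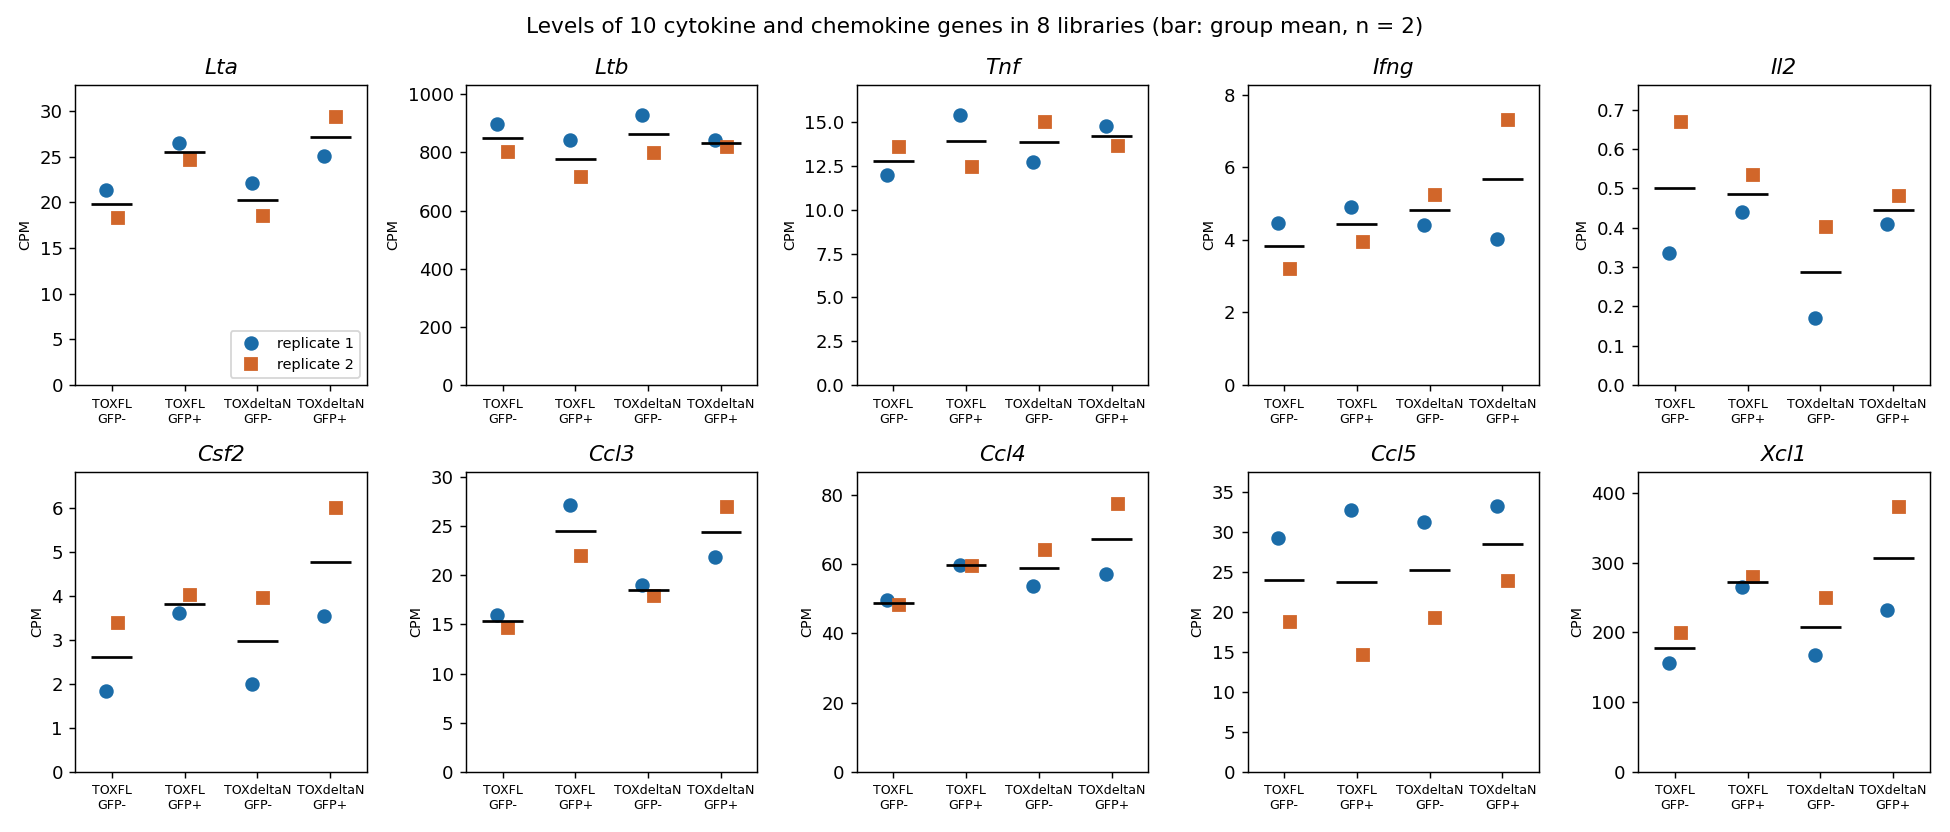
Levels of the 10 members in CPM (vertical axis, from 0, a scale of its own in each panel) for the 4 groups, with replicate 1 as blue circles, replicate 2 as orange squares and the group mean as a bar (n = 2). The 4 GFP-positive libraries lie above the 4 GFP-negative libraries for Lta and Ccl3, and replicate 2 lies below replicate 1 in all groups for Ltb and Ccl5.

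Among the cytokines of the tumour necrosis factor family, Lta was higher in GFP-positive cells with both constructs. Lta (ENSMUSG00000024402.5), secreted lymphotoxin alpha, stood at 21.29 and 18.31 CPM in TOXFL GFP-negative replicates 1 and 2 and at 26.53 and 24.57 CPM in TOXFL GFP-positive cells. In the TOXdeltaN culture it stood at 22.07 and 18.47 CPM in GFP-negative and at 25.05 and 29.3 CPM in GFP-positive cells. Every GFP-positive library was above every GFP-negative library, which held for 8.22% of the 13329 tested genes. Lta and Ccl3 were the only members with that separation, and no member had the opposite one, which held for 8.08% of genes.

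Its neighbours Ltb and Tnf did not share this pattern. Ltb (ENSMUSG00000024399.5) stood at 898 and 800 CPM in TOXFL GFP-negative cells and at 841 and 716.3 in TOXFL GFP-positive cells, and at 927.6 and 797.6 and then 842.7 and 819.3 in the TOXdeltaN culture. GFP-positive and GFP-negative libraries overlapped, and Ltb was lower in the GFP-positive library of 3 of the 4 same-numbered pairs. Tnf (ENSMUSG00000024401.14), an inflammatory and cytotoxic cytokine, stood at 12 and 13.59 CPM in TOXFL GFP-negative and 15.4 and 12.43 in TOXFL GFP-positive cells. With TOXdeltaN it stood at 12.73 and 15.01 CPM in GFP-negative and 14.76 and 13.67 in GFP-positive cells. The groups overlapped for both constructs: replicate 1 was higher in GFP-positive cells and replicate 2 was lower.

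The other cytokines were sparse. Ifng (ENSMUSG00000055170.4), the main antiviral and macrophage-activating cytokine of CD8+ T cells, stood at 4.474 and 3.205 CPM in TOXFL GFP-negative and 4.907 and 3.954 in TOXFL GFP-positive cells. With TOXdeltaN it stood at 4.414 and 5.237 CPM in GFP-negative and 4.033 and 7.315 in GFP-positive cells, the last being the highest library of all 8. Csf2 (ENSMUSG00000018916.5), a growth factor for myeloid cells, stood at 1.827 and 3.381 CPM in TOXFL GFP-negative and 3.621 and 4.017 in TOXFL GFP-positive cells. It stood at 1.985 and 3.962 CPM in TOXdeltaN GFP-negative and 3.554 and 5.996 in TOXdeltaN GFP-positive cells. Csf2 rested on 49 to 150 counts a library and was higher in the GFP-positive library of all 4 same-numbered pairs, by 1.19 to 1.98 times. Il2 (ENSMUSG00000027720.7), the T cell growth factor, had 9 and 19 counts in TOXFL GFP-negative, 13 and 17 in TOXFL GFP-positive, 5 and 12 in TOXdeltaN GFP-negative and 12 and 12 in TOXdeltaN GFP-positive cells. At these counts a difference in Il2 between groups was not detectable.

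Among the chemokines, Ccl3 and Xcl1 differed most. Ccl3 (ENSMUSG00000000982.5), an inflammatory chemokine, stood at 15.96 and 14.65 CPM in TOXFL GFP-negative and 27.14 and 21.94 in TOXFL GFP-positive cells. In the TOXdeltaN culture it stood at 18.99 and 17.93 CPM in GFP-negative and 21.87 and 26.9 in GFP-positive cells. All 4 GFP-positive libraries were above all 4 GFP-negative ones.

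Xcl1 (ENSMUSG00000026573.7), the ligand of XCR1 on cross-presenting dendritic cells, stood at 155.9 and 199 CPM in TOXFL GFP-negative and 265 and 280 in TOXFL GFP-positive cells. With TOXdeltaN it stood at 167.1 and 249.2 CPM in GFP-negative and 232.3 and 380.2 in GFP-positive cells. TOXdeltaN GFP-negative replicate 2 lay above TOXdeltaN GFP-positive replicate 1, but each GFP-positive library was above the GFP-negative library of the same number, by 1.39 to 1.7 times.

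Ccl4 and Ccl5 are further inflammatory chemokines. Ccl4 (ENSMUSG00000018930.3) stood at 49.58 and 48.07 CPM in TOXFL GFP-negative and 59.69 and 59.44 in TOXFL GFP-positive cells. With TOXdeltaN it stood at 53.66 and 64.09 CPM in GFP-negative and 57.07 and 77.31 in GFP-positive cells, so the TOXFL groups were apart and the TOXdeltaN groups overlapped. Ccl5 (ENSMUSG00000035042.2) stood at 29.26 and 18.77 CPM in TOXFL GFP-negative and 32.79 and 14.56 in TOXFL GFP-positive cells. It stood at 31.24 and 19.17 CPM in TOXdeltaN GFP-negative and 33.18 and 23.82 in TOXdeltaN GFP-positive cells. Here replicate 1 was the higher library in every group, and the GFP-positive and GFP-negative libraries overlapped.

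Over all 4 same-numbered pairs, 5 of the 10 members (Lta, Csf2, Ccl3, Ccl4 and Xcl1) were higher in the GFP-positive library each time, against 18.6% of tested genes. No member was lower each time, against 18.9% of genes. Within the TOXFL culture, both GFP-positive libraries were above both GFP-negative libraries for the same 5 members (24.9% of genes), and within the TOXdeltaN culture for Il2, Lta and Ccl3 (21.1% of genes). For Il2 this order rested on library scaling alone. TOXdeltaN GFP-negative replicate 2 and both TOXdeltaN GFP-positive libraries each had 12 counts.

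The first comparison asked how GFP-positive cells with TOXFL differed from the GFP-negative cells of their culture. Ccl3 showed the largest difference, from 15.3 ± 0.923 to 24.54 ± 3.68 CPM (SD, n = 2), and Xcl1 went from 177.5 ± 30.4 to 272.5 ± 10.6 CPM. In edgeR's quasi-likelihood test over all genes, the log2 fold change of Ccl3 was 0.68 (SE 0.15, adjusted p = 0.125). That of Xcl1 was 0.62 (SE 0.241, adjusted p = 0.314) and that of Lta 0.37 (SE 0.141, adjusted p = 0.307). No member was called at an adjusted p under 0.05, and 3 had an unadjusted p under 0.05, where 0.045% of all tested genes were called and 13.4% had such an unadjusted p. DESeq2 called 1 member, Ccl3 (adjusted p = 0.0164), and limma-voom none. For TOXFL and for the average below, the DESeq2 counts over all genes stand in the closing section. Those of limma-voom are not given.

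The replicate numbers are an open point in the design. Same-numbered libraries deviated together from their group means in all 6 pairs of groups, so a second fit carried the replicate number as a block. In that blocked fit 2 members were called with TOXFL, both higher: Xcl1 by a log2 of 0.64 (SE 0.131, adjusted p = 0.0289) and Ccl3 by 0.68 (SE 0.145, adjusted p = 0.0343). In that fit 3.48% of all genes were called and 1.51% were called higher. These calls were lost on leaving out single libraries, for both genes without TOXFL GFP-negative replicate 1 or 2, TOXFL GFP-positive replicate 1, or TOXdeltaN GFP-negative replicate 1 or 2. For Ccl3 they were also lost without TOXFL GFP-positive replicate 2, and adjusted p reached 0.251 for Ccl3 and 0.24 for Xcl1. Csf2 had a log2 difference of 0.62 (adjusted p = 0.273), Lta 0.37 (adjusted p = 0.16) and Ccl4 0.29 (adjusted p = 0.23), none past the threshold. Ifng, Tnf, Ltb, Ccl5 and Il2 had log2 differences of 0.21, 0.12, -0.12, -0.02 and -0.05 without the block, with adjusted p from 0.673 to 0.99.

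The second comparison asked the same of TOXdeltaN. Lta went from 20.27 ± 2.55 to 27.17 ± 3.00 CPM, Ccl3 from 18.46 ± 0.752 to 24.39 ± 3.56 and Xcl1 from 208.2 ± 58.1 to 306.2 ± 104.6. Their log2 fold changes were 0.42 (SE 0.14, adjusted p = 0.351), 0.40 (SE 0.148, adjusted p = 0.366) and 0.56 (SE 0.24, adjusted p = 0.396). The count of called members was 0 in edgeR, DESeq2 and limma-voom, with 3 at an unadjusted p under 0.05 in edgeR. Over all genes 0.03% were called and 12.2% had such an unadjusted p. With the block it was again 0, against 1.65% of genes, and the smallest adjusted p was that of Xcl1, 0.0724. Adding the length correction to the block brought Ccl3 from a log2 of 0.40 to 0.19, Xcl1 from 0.55 to 0.30 and Lta from 0.43 to 0.26, none called. Csf2 (log2 0.68, adjusted p = 0.525) and Il2 (log2 0.62, adjusted p = 0.725) had larger fitted differences with wide errors (SE 0.424 and 0.683). Ifng, Ccl4, Ccl5, Tnf and Ltb differed by 0.23, 0.19, 0.18, 0.04 and -0.05 on the log2 scale, with adjusted p from 0.6 to 0.941.

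Averaged over both constructs, Ccl3 was higher in GFP-positive cells. Its fold change was 1.45 (95% interval 1.23 to 1.71; log2 0.54, SE 0.105, adjusted p = 0.0361), and it was higher in 4 of 4 pairs. It was the only member called, or 1 of 10, where 2.42% of all genes were called and 1.34% were called higher. The call held with limma-voom (adjusted p = 0.0421) and DESeq2 (0.00152) but rested on the full set of libraries: adjusted p was 0.0589 to 0.16 without any 1 of 7 libraries. The call of Ccl3 remained only without TOXdeltaN GFP-positive replicate 1. Each omission leaves 1 library in a group, and the number of all genes called also moved widely with the library left out. The log2 of Ccl3 ran from 0.458 to 0.612 over the 8 omissions.

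With the replicate block the average called 3 members higher, Xcl1 (log2 0.59, SE 0.0924, adjusted p = 0.00418), Ccl3 (log2 0.54, SE 0.102, adjusted p = 0.00944) and Lta (log2 0.40, SE 0.0934, adjusted p = 0.0233). In the same fit 12.7% of all genes were called and 6.04% were called higher. Xcl1 passed in each of the 8 omissions of 1 library (adjusted p from 7.79e-05 to 0.0424). Ccl3 passed in 5, and not without TOXFL GFP-negative replicate 2 or either TOXdeltaN GFP-negative library (adjusted p up to 0.0732). Lta passed only without TOXdeltaN GFP-positive replicate 1 or 2 (adjusted p up to 0.155 in the other 6). In edgeR without the block Xcl1 was 1.5-fold higher (1.15 to 1.96, adjusted p = 0.0956) and Lta 1.32-fold (1.13 to 1.54, adjusted p = 0.0716), both short of the threshold. Other fits without the block differed. DESeq2 called Lta (adjusted p = 0.0225) and not Xcl1 (0.103), and limma-voom called neither (0.0728 and 0.0896). EdgeR with no filter on low counts called both (adjusted p = 0.00829 for Lta and 2.32e-10 for Xcl1). The counts over all genes for DESeq2 and for no filter stand in the closing section.

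The remaining members were not called in this average, with or without the block. Csf2 had a fold of 1.53 (95% interval 0.958 to 2.45) and an adjusted p of 0.266 without and 0.0572 with the block. Ccl4 had a log2 difference of 0.24 (adjusted p = 0.218, and 0.102 with the block). The interval of Ifng ran from 0.815 to 1.66 times and that of Ccl5 from 0.699 to 1.6, so a moderate change in either direction was not excluded by these data. Tnf (0.886 to 1.26 times) and Ltb (0.831 to 1.06) were held to narrower bounds. Il2, at 0.587 to 2.53 times, was not constrained.

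**Figure D2:**
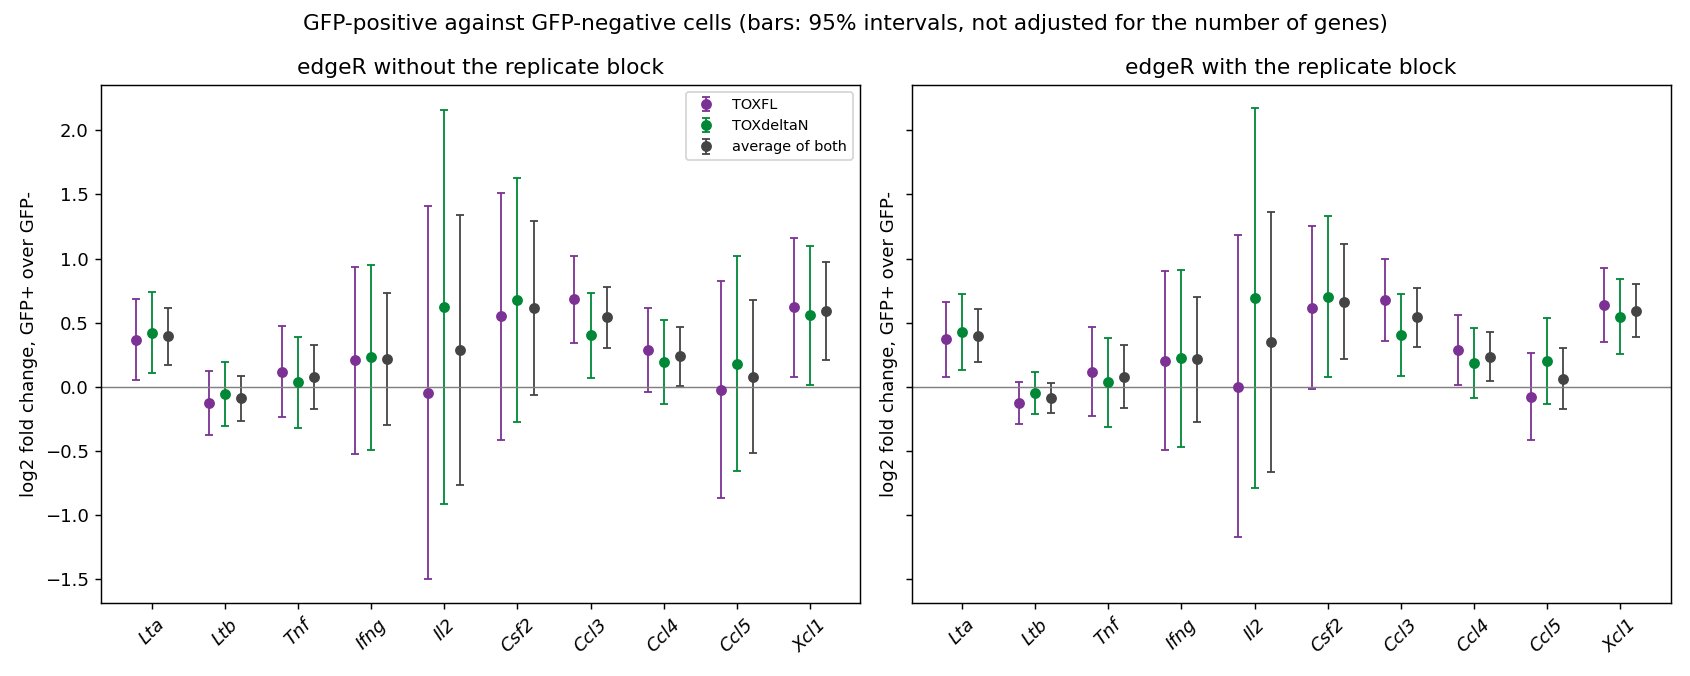
Log2 fold change of each member, GFP-positive over GFP-negative (vertical axis), for TOXFL (purple), TOXdeltaN (green) and their average (grey), without the replicate block on the left and with it on the right. Bars are 95% intervals for single genes and are not adjusted for the number tested, and Ccl3, Xcl1 and Lta have averages of 0.54, 0.59 and 0.40 without the block.

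As a group, the members had a median log2 difference of 0.262 in the average without the block, against -0.000522 over all tested genes, with 9 of 10 above 0. The medians were 0.247 with TOXFL (7 above 0) and 0.315 with TOXdeltaN (9 above 0). All members are short, with 523 (Xcl1) to 1639 (Tnf) bases of exon, in the lowest 12% of lengths among the 13000 tested genes with a known length, whose median was 4153 bases. With a correction for gene length added to the block, the median of the average was 0.155, against 0.291 with the block alone, and 7 of 10 were above 0. In this fit 12% of all genes were called. Still called were Ccl3, by a log2 of 0.40 (adjusted p = 0.0095), and Xcl1, by 0.44 (adjusted p = 0.00111). Lta was not (log2 0.27, adjusted p = 0.0514), and Ltb was called lower (log2 -0.21, adjusted p = 0.00949). With TOXFL alone this fit again called Ccl3 and Xcl1 (log2 0.61 and 0.58), beside 4.34% of genes.

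The difference between the constructs was tested directly as an interaction, the TOXFL effect minus the TOXdeltaN effect. No member was called in edgeR with or without the block, in DESeq2 or in limma-voom, and 0% of all genes were called in edgeR. No member had an unadjusted p under 0.05 in edgeR without or with the block, where 2.39% and 3.71% of genes had one. With the block and the length correction 2 members did, Ccl3 (log2 0.42) and Xcl1 (log2 0.28), each with an adjusted p of 0.976, against 4.34% of genes. The interaction for Ccl3 was 0.28 on the log2 scale, with a 95% interval of -0.192 to 0.753. For Xcl1 it was 0.06 (-0.699 to 0.824) and for Lta -0.05 (-0.5 to 0.392). As folds, the interval for Ccl3 ran from 0.875 to 1.69, so the constructs were shown neither to differ nor to act alike. The direct comparison of TOXFL with TOXdeltaN GFP-positive cells gave 0 called members in all of these fits, where 0% of genes were called without the block and 0.0075% with it. In it 8 of 10 members were lower with TOXFL, from -0.35 (Ifng) to -0.03 (Tnf) on the log2 scale, and none had an unadjusted p under 0.05 without the block, against 5.76% of genes. With the block Ccl5 alone had one, with an adjusted p of 0.518 in edgeR, against 9.54% of genes. The length correction turned the direction: with it and the block 7 of 10 members were higher with TOXFL, with a median of 0.0643 against -0.131 without either, and none was called. Tnf, Lta, Ltb, Ccl4 and Xcl1 changed sign. The 2 sets of GFP-negative cells also showed 0 called members in each fit, against 0% of genes. None had an unadjusted p under 0.05, against 2.46% of genes without the block and 4.1% with it. In these cells 9 of 10 members were lower in the TOXFL culture, including Ccl3 and Ccl4 (log2 -0.27 each, adjusted p = 1), and 6 of 10 were with the block and length correction.

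Some members differed with the replicate number. Ccl5 was lower in replicate 2 of all 4 groups, at 0.444 to 0.718 times replicate 1. In the blocked fit its replicate term was a log2 of -0.75 (SE 0.107, adjusted p = 0.00595), against 0.06 (SE 0.107, adjusted p = 0.753) for GFP status. Xcl1 was higher in replicate 2 of all groups, by 1.06 to 1.64 times (log2 0.43, SE 0.0926, adjusted p = 0.0385). These 2 members were called, 20% of the list, beside 3.02% of all genes. Csf2 and Il2 were also higher in replicate 2 of all groups (log2 0.69 and 0.64, adjusted p = 0.11 and 0.509), a pattern found in 13% of genes. Ltb was lower in replicate 2 of all groups (log2 -0.16, adjusted p = 0.138), as were 13.9% of genes. With the length correction added to the block, the replicate term of Ltb was called as well (log2 -0.23, adjusted p = 0.0118). In that fit 206 of the 13329 tested genes were called higher in replicate 2 and 290 lower. The Ccl5 call was lost without either TOXdeltaN GFP-negative library (adjusted p up to 0.052), and the Xcl1 call without any 1 of the 4 GFP-negative libraries (adjusted p up to 0.225).

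**Figure D3:**
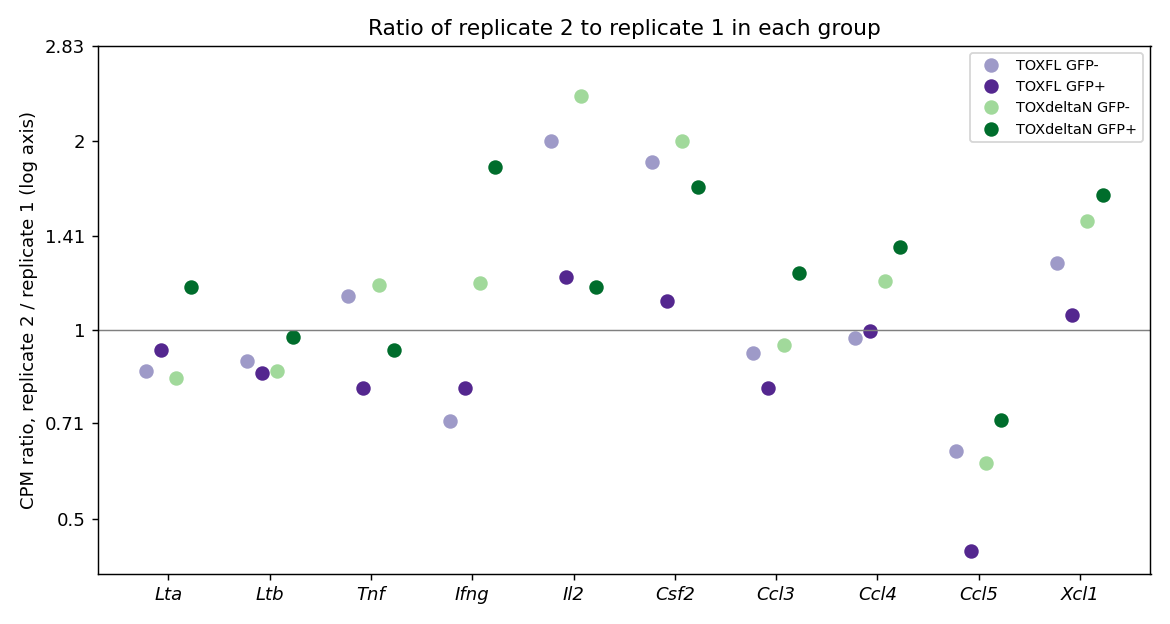
Ratio of replicate 2 to replicate 1 in CPM (vertical axis, logarithmic) for each member in the 4 groups (light and dark purple for TOXFL GFP-negative and GFP-positive, light and dark green for TOXdeltaN). The 4 ratios of Ccl5 lie between 0.444 and 0.718 and those of Xcl1 between 1.06 and 1.64.

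The same libraries differed in a few transcripts of antigen-presenting cells. The 10 myeloid and dendritic markers summed to 6.897 and 13.52 CPM in TOXFL GFP-negative replicates 1 and 2, 11.17 and 25.73 in TOXFL GFP-positive, 8.418 and 18.77 in TOXdeltaN GFP-negative and 11.86 and 27.02 in TOXdeltaN GFP-positive cells. Most of the sum was Cd74 (4.921 to 25.22 CPM), 7 of the 10 markers stayed under 1 CPM in every library, and 3 had no count at all. The sum was higher in replicate 2 and in GFP-positive cells, as were Xcl1 and Csf2, and its part in those results was not tested.

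The genes whose levels followed a member most closely were found by Pearson's r of log2 CPM over the 8 libraries, among 9053 genes above 8 CPM. They share the libraries and their depth, and r is given as a description. For Xcl1 they were C1qtnf12 (r = 0.993), Gstm4 (0.989) and Mrpl12 (0.986). For Lta they were Mpv17l2 (0.974), Ostf1 (0.96) and Mrps34 (0.959), and for Ccl3 Cops5 (0.954), Zfyve19 (0.951) and Selenos (0.948). For Ltb they were AA467197 (0.975), Sept1 (0.974) and Klrh1 (0.964).

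Of 26 other T cell cytokines and chemokines, 10 had enough counts to be tested. The genes for IL-4, IL-10, IL-13, IL-17A, IL-21 and IL-22 were without enough counts, and so was Il3, with at most 6. Spp1, which encodes the secreted protein osteopontin, stood at 2.796 and 4.719 CPM in TOXFL GFP-negative and 6.125 and 9.76 in TOXFL GFP-positive cells. With TOXdeltaN it stood at 3.764 and 5.707 CPM in GFP-negative and 6.801 and 10.71 in GFP-positive cells. All GFP-positive libraries were above all GFP-negative ones, and the average difference was a log2 of 0.98 with the block (SE 0.127, adjusted p = 0.00187; 0.0765 without it). Spp1 was also called in each construct with the block (log2 1.08 and 0.88, adjusted p = 0.0137 and 0.0461). The TOXFL call passed in 4 of 8 omissions of a library. The TOXdeltaN call passed in 1 of 8 (adjusted p up to 0.529) and was lost with the length correction (adjusted p = 0.0679). Il16, a CD4 ligand, was lower (log2 -0.24, adjusted p = 0.031) and passed in 3 of 8 omissions, so 1 of 10 was called higher and 1 lower in the blocked average. Over all genes the blocked average called 6.04% higher and 6.69% lower. Ebi3, a subunit of heterodimeric interleukins, had the largest fitted difference (log2 1.04, adjusted p = 0.266) on at most 63 counts and was not called in either fit.

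Receptors for the members were examined next. Of 14 receptor genes 9 were tested, and the blocked average called 0 higher and 2 lower, where 6.04% of all genes were called higher and 6.69% lower. Ifngr1, the ligand-binding chain of the interferon gamma receptor, stood at 962.8 and 943.4 CPM in TOXFL GFP-negative and 763.8 and 801.2 in TOXFL GFP-positive cells. With TOXdeltaN it stood at 975.6 and 957.5 CPM in GFP-negative and 734.9 and 769.1 in GFP-positive cells, without overlap. It was called without the block (log2 -0.32, SE 0.0548, adjusted p = 0.0257) and with it (adjusted p = 0.00352). Il2rg, the common gamma chain, was called with the block only (log2 -0.19, adjusted p = 0.0302) and passed in 3 of 8 omissions (adjusted p up to 0.199). The IL-2 receptor genes Il2ra and Il2rb had adjusted p of 0.998 and 0.597. Csf2ra, the ligand-binding chain for GM-CSF, had a log2 difference of 0.23 (adjusted p = 0.552) at 3.281 to 6.316 CPM.

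Genes that respond to interferon gamma, tumour necrosis factor or IL-2 were the next list. Of 17 such targets 16 were tested, and the blocked average called 0 higher and 3 lower, where 6.04% of all genes were called higher and 6.69% lower. Gbp2, an interferon-induced GTPase, stood at 355.5 and 318.4 CPM in TOXFL GFP-negative and 261 and 212 in TOXFL GFP-positive cells, and at 357.1 and 306 and then 245.7 and 194.7 in the TOXdeltaN culture. It was called without the block (log2 -0.55, SE 0.103, adjusted p = 0.0322) and with it (adjusted p = 0.000712), and in all 8 omissions of the blocked fit. Reads of Gbp2 may be shared with near-identical family members. The transcription factor gene Irf1 (log2 -0.29, adjusted p = 0.00883) and the PD-L1 gene Cd274 (log2 -0.46, adjusted p = 0.0164) were called lower with the block only, in 5 and 4 of 8 omissions. All 3 are also targets of other interferons.

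Of 15 regulators of cytokine mRNA stability, all tested, the blocked average called 4 lower and 1 higher, and the fit without the block called 0. Over all genes 6.69% were called lower and 6.04% higher with the block, and 2.42% in either direction without it. The decay factor genes Zfp36l2 (log2 -0.38, adjusted p = 0.00692; 0.0586 without the block) and Zfp36 (log2 -0.22, adjusted p = 0.047) encode proteins that bind the nonamer shown above. Zfp36l2 stood at 300.1 and 289.3 CPM in TOXFL GFP-negative and 244.9 and 213.2 in TOXFL GFP-positive cells, and at 295.4 and 290.9 and then 251.9 and 197 with TOXdeltaN, without overlap. Rc3h1 (log2 -0.28, adjusted p = 0.0455) and Rc3h2 (log2 -0.40, adjusted p = 0.00982) encode the roquin proteins, which bind stem-loops in cytokine messages, and Ilf2 (log2 0.22, adjusted p = 0.0386) encodes the partner of an RNA-binding protein. With the length correction Rc3h2 was not called (log2 -0.17, adjusted p = 0.169). Zfp36 passed in 1 of 8 omissions of a library, and Rc3h1 and Ilf2 in 2. Of the members with a nonamer, Lta alone was called in the blocked average. Ccl3 and Xcl1, which were called as well, have no nonamer but 5 and 1 pentamers. A link between these regulators and the levels of the members was not tested.

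Of 22 transcription factors of cytokine genes, 21 were tested and 0 were called without the block. With it Nfatc3 (log2 -0.37, adjusted p = 0.0278) and Jun (log2 -0.34, adjusted p = 0.0121) were called lower, in 3 and 4 of the 8 omissions. Tbx21, which encodes the factor T-bet, a regulator of Ifng, was at 131.5 to 164.5 CPM and was not called (log2 0.14, adjusted p = 0.329). Fosb had the largest fitted difference (log2 -0.38, adjusted p = 0.721) at 0.1999 to 1.015 CPM. Over the 5 lists, the medians of the average without the block were 0.0226 for other cytokines, 0.00731 for receptors, -0.0963 for transcription factors, -0.0762 for stability regulators and -0.0827 for targets. In the blocked average 12.7% of all genes were called and 6.69% were called lower.

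**Figure D4:**
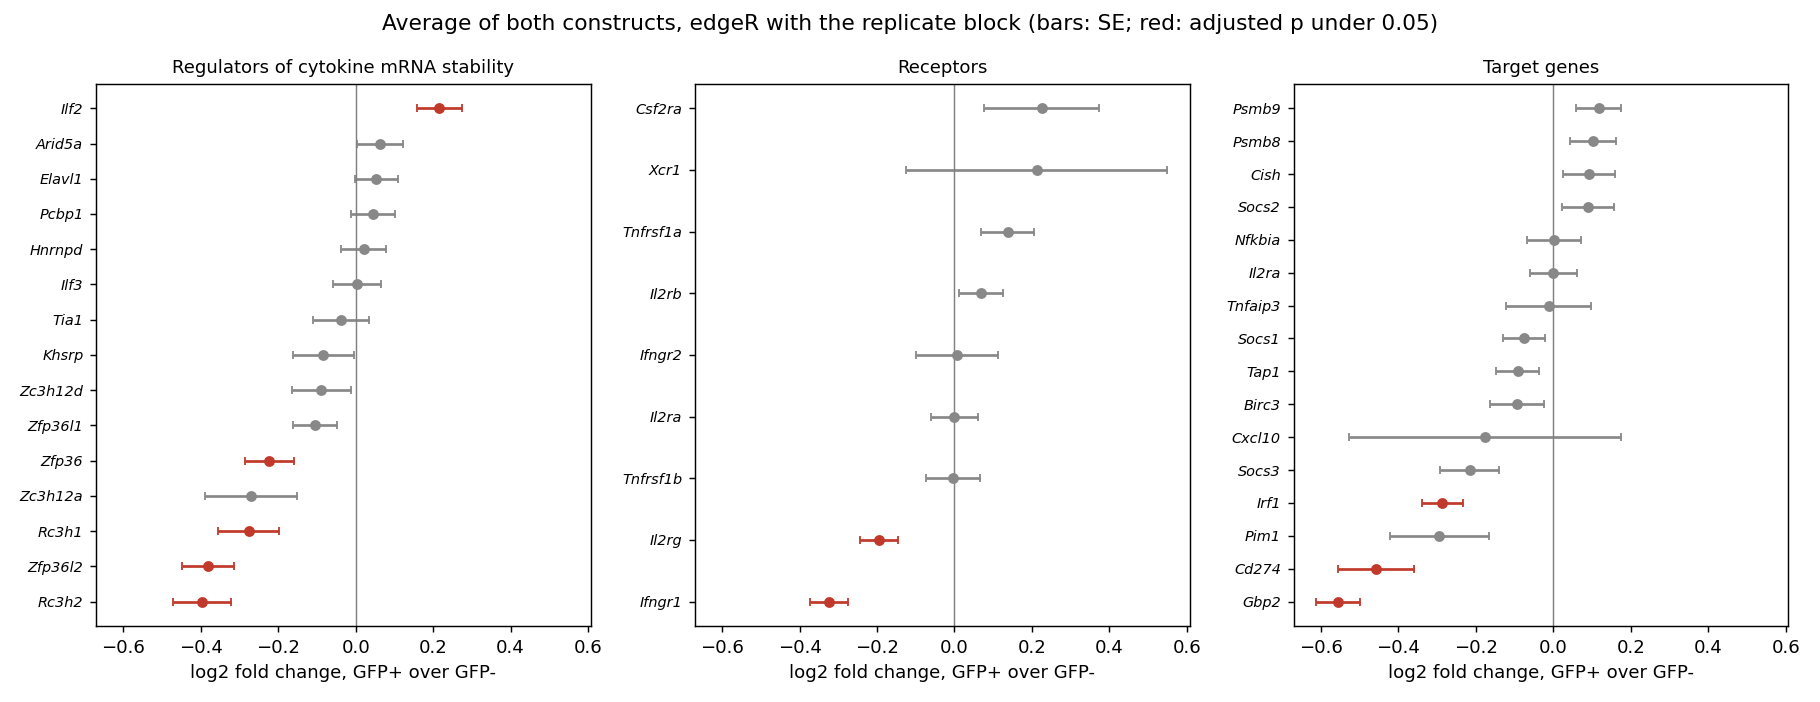
Log2 fold change of GFP-positive over GFP-negative cells, averaged over both constructs in the blocked fit (horizontal axis), for the tested genes of 3 lists, with bars of 1 SE and red points for an adjusted p under 0.05. The red points lie below 0 for 2 receptors, 3 targets and 4 stability regulators, and above 0 for Ilf2.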

How the data were processed

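RNA was measured in 8 libraries (SMART-Seq v4 with Nextera XT from 8 ng of total RNA, per the labels). The authors deposited expected counts per gene as whole numbers. They used bcl2fastq 2.20, cutadapt, STAR 2.6.1 and RSEM 1.2.28 on GRCm38, per the submitters' processing notes. The annotation release and the rounding are not given in the sources used here, and 31173 of 31815 gene IDs matched GENCODE M21 with their version. The 92 spike-in rows held no counts and were left out.

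Genes were kept by edgeR's filterByExpr (13329 genes, all 10 members), scaled by TMM (factors 0.9894 to 1.02) and tested with edgeR 4.0.16 quasi-likelihood F-tests in R 4.3.3 over all 8 libraries in 4 groups, with p-values adjusted by Benjamini-Hochberg over these genes and called under 0.05. The biological coefficient of variation was 0.1321, and 0.0958 with the block. Levels are TMM-scaled CPM. The test was run on simulated data with planted changes of 2-fold and 4-fold, larger than the differences of the called members. It found 97% to 100% of them, with 11 false calls without and 12 with the block. The simulation set a base coefficient of variation below 0.1321, and changes were planted only in well-counted genes. The shares found therefore do not give the power for the members, least of all for sparse ones such as Il2. The simulated libraries shared no replicate effect, so the use of the block was not checked. Replicates differed by more than sampling noise in every group. The chi-square per degree of freedom was 11.4 in TOXFL GFP-negative, 19.5 in TOXFL GFP-positive and 11.5 in TOXdeltaN GFP-negative cells. It was largest, 39.7, in TOXdeltaN GFP-positive cells. Alternatives were the replicate block, the block with a gene-length correction, DESeq2 1.42.0, limma-voom 3.58.1, other scalings, no filter, only the groups compared, and leaving out each library.

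Replicates are numbered 1 and 2 in every group, with no label saying what is shared. Each library's deviation from its group mean was correlated, across tested genes, with that of the library of the same number in another group. The 6 pairs of groups gave 0.168 to 0.241, which was read as pairing before any calls were compared. It is inferred from the counts alone.

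The members and the gene lists were chosen with earlier results of these data known. Named are all members, the list genes called in either fit (up to 6 a list and comparison), the 2 list genes with the largest change in the average, the 3 genes most like a called member, and Tox. A receptor gene and a target gene of the lists are not reported here and were left out of the list counts and medians. The test of replicate 2 against replicate 1, the windows shown for sequences, and the naming of Tbx21, Il2ra, Il2rb and the untested interleukins, were chosen after seeing the data.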

Additional observations from a re-analysis of the deposited data

How the results depend on the processing

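With TOXFL the number of members called was 0 in the fit without the block, 2 with the replicate block, 2 with the block and the length correction, 1 with DESeq2 and 2 with no filter on low counts. With TOXdeltaN it was 0, and 1 with no filter. For the average it was 1, then 3 with the replicate block, 3 with the block and length correction, 2 with DESeq2 and 3 with no filter. Leaving out each library in turn leaves 1 library in a group. In most of these comparisons the number of members called moved with the library left out. The number called over all genes moved widely in the same omissions. Over all genes, the counts called were 6 with TOXFL (464 with the block, 578 with the block and length correction, 314 with DESeq2, 678 with no filter), 4 with TOXdeltaN (220, 292, 121 and 516) and 323 for the average (1697, 1594, 1058 and 1665). The cause was not tested.

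Over all 6 comparisons, 10 members and the alternatives that leave out no library of the groups compared, 18 of 460 values changed sign, 15 of them with the block and length correction, and none of the 18 was called. These were 2 with TOXFL, 2 with TOXdeltaN, 2 in the average, 4 in the interaction, 5 between the GFP-positive groups and 3 between the GFP-negative groups. Il2 with TOXFL had a log2 of 0.00226 with the replicate block and 0.0165 with limma-voom. With the block and length correction Tnf (-0.103) and Ccl4 (-0.0422) changed with TOXdeltaN, Tnf (-0.036) and Ccl5 (-0.0794) in the average, and Lta (0.0228) in the interaction. On leaving out single libraries, the TOXFL differences of Ifng ran from -0.0138 to 0.467, Tnf -0.0437 to 0.267, Il2 -0.454 to 0.533 and Ccl5 -0.722 to 0.450. Those with TOXdeltaN ran from -0.259 to 0.596 for Ifng, -0.0791 to 0.159 for Tnf, -0.160 to 0.0576 for Ltb, -0.0454 to 0.390 for Ccl4 and -0.132 to 0.572 for Ccl5. The averages ran from -0.0263 to 0.402 for Ifng, -0.00538 to 0.150 for Tnf and -0.273 to 0.314 for Ccl5, and the interactions from -0.186 to 0.0707 for Lta and -0.253 to 0.461 for Xcl1. Low counts limit Il2, Csf2 and Ifng.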
